A study of Mus musculus with 6 samples.

Results

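The genes of the ATF4 arm of the integrated stress response were followed in 6 clonal lines of MIN6, a mouse insulinoma line used as a model of the pancreatic β cell. The set holds 41 genes, chosen by name out of 53801 mouse genes listed for each clone. It comprises 7 transcription factors led by *Atf4*, 5 feedback and stress effectors, 7 enzymes of asparagine, serine and one-carbon metabolism, 3 other amino acid and carbon enzymes, 6 amino acid transporters, 10 cytosolic tRNA synthetases and 3 genes for secreted or surface proteins. All 6 lines came from MIN6 cells that already expressed Cas9, received a gRNA by lentivirus, were selected with puromycin and were each grown from a single cell. In the 3 control clones (Control 1 to Control 3) Cas9 was directed to *intron 2* of *Snd1*, and in the 3 *Snd1* KO clones (*Snd1* KO 1 to *Snd1* KO 3) it was directed to *exon 2* of the same gene. SND1 is a coregulator protein that the study examined as a partner of the β cell factor PDX1. Each line is 1 clone with 1 library, so n = 3 clones in each group, and the spread within a group is the spread between clones. The edited sequences of clones named *Snd1* KO1 and KO2 are aligned under gRNA1, and that of KO3 under gRNA2, another guide to *exon 2*. If these are the libraries with the same names, a difference of *Snd1* KO 3 from the other *Snd1* KO clones cannot be told apart from a difference of guide.

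The integrated stress response starts with kinases (GCN2, PERK, PKR and HRI) that phosphorylate the translation factor eIF2 when amino acids run short, proteins misfold or a virus or lack of heme is sensed. Most translation then slows, while the *Atf4* messenger RNA, which carries small upstream reading frames, is translated more. ATF4 protein pairs with C/EBP family members and switches on genes that make, import and charge amino acids, and also *Ddit3*, which encodes CHOP. β cells make much proinsulin in the endoplasmic reticulum and depend on the kinase PERK to match translation to folding. RNA sequencing reads the messenger RNA alone, so the level of ATF4 protein was not measured here.

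ATF4 with a C/EBP partner binds a C/EBP-ATF response element, and stretches with its letters are shown here. The genes were chosen by name as part of the ATF4 response. How often they hold the element is therefore not independent of that choice, and the shares below are a description only. The 250 bases before the RefSeq start of each gene (build GRCm38.p6) were searched on both strands for TGATGNAA, for its form TGATGCAA, which is counted within TGATGNAA too, and for the cAMP response element TGACGTCA. Of the 41 genes, 34 had an entry in the promoter table, and 10 of these 34 (29.4%) held TGATGNAA, beside 3.91% of 27025 genes in the table. The form TGATGCAA was in 7 of the 34 (20.6%) and in 0.918% of all genes. TGACGTCA was in 1 of the 34 (2.94%), *Ppp1r15a*, and in 1.77% of all genes. Capitals mark the element, which appears as its reverse complement when it lies on the opposite strand, and each line runs 5′ to 3′ on the strand of its gene.
*Atf3*, minus strand, chr1:191183425-191183454: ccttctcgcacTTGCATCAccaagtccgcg
*Nupr1*, minus strand, chr7:126625562-126625591: aaagggccagaTTGCATCAgacagggcttg
*Chac1*, plus strand, chr2:119351038-119351067: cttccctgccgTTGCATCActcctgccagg
*Asns*, minus strand, chr6:7693214-7693243: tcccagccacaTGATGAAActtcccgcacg
*Slc7a11*, minus strand, chr3:50443661-50443690: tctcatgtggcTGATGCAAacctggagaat
*Slc7a11*, minus strand, chr3:50443642-50443671: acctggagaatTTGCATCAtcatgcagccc
*Gars*, plus strand, chr6:55037960-55037989: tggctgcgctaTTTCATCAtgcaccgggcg
*Vldlr*, plus strand, chr19:27216809-27216838: agcagcaatagTTGCATCAgcgctcctagc
Members with TGATGNAA that are not printed include *Pck2* and *Tars*. A match describes these letters in this window and is no evidence of binding.

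Messenger RNA levels are given as TPM, in which the reads on a gene are divided by its length and the values of a clone add up to 1000000. *Snd1* itself (ENSMUSG00000001424) checks the labels. Its level was 113, 119 and 112 TPM in Control 1 to 3 and 14.8, 57.1 and 19.9 TPM in *Snd1* KO 1 to 3. Every *Snd1* KO clone was below every control clone, with 12.9%, 49.8% and 17.3% of the control mean left, so *Snd1* KO 2 kept the most messenger RNA. The study screened its clones for SND1 by western blot and chose SND1-deficient ones. The messenger RNA left does not show how much protein was left. For *Snd1* the log2 fold change was -2.11 with SE 0.452 (limma, adjusted p = 0.511), on the log2(TPM + 1) scale used throughout. The depth recovered from the steps in the TPM values was between 23671605 and 30412332 reads on genes per clone. This is above the depth that the methods of the study state. Whether 1 recovered read is a read pair or a single mate of a pair could not be told, so small read numbers may stand for fewer fragments. On the first principal component (40.3% of the variance) Control 3 lay with *Snd1* KO 3, at 12.9 and 18.05, and away from Control 1 and Control 2, at -30.27 and -33.04. *Snd1* KO 1 stood apart from the other 5 clones on the second principal component (27.4% of the variance), at -43.4 against -5.98 to 14.2. Fold changes are therefore given with and without this clone for the members named with values in every clone. Of 8 β cell markers, *Pdx1* was at 1634 to 2164 TPM over the 6 clones, *Slc2a2* was at 69.2%, 30.6% and 24.8% of the control mean in *Snd1* KO 1 to 3, and *Neurod1* was at 146.8%, 178.4% and 191.7%. *Ins1* was at 49.2%, 285.6% and 196.5% and *Ins2* at 77.7%, 100.1% and 71.3%, and none of the 8 had an adjusted p under 0.372 (limma). Of the other islet cell markers, the glucagon gene *Gcg* was highest in *Snd1* KO 1, at 1100 TPM against 55.2 to 314 TPM in the other clones, and *Sst* was at 2.42 TPM there and at most 0.510 TPM elsewhere. The other 5 of the 7 islet markers were at most 0.648 TPM. All 5 acinar and duct markers were at most 0.0844 TPM and the 6 fibroblast, endothelial and immune markers at most 2.76 TPM. The part of *Gcg*-bearing cells in the levels given here was not tested. In bulk RNA, fewer cells of a type and less RNA per cell cannot be told apart.

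Of the 41 genes, 39 passed the filter of a mean of at least 0.5 TPM, and *Stc2* and *Gdf15* did not. None of the 39 reached the call of at least a 2-fold difference with an adjusted p under 0.05 (limma, Benjamini-Hochberg adjustment over 17823 genes). Over all genes tested, 1 gene or 0.00561% was called, the gene *Gm24966*, which was chosen for mention after its values were seen. *Snd1* itself was not called, at an adjusted p of 0.511 (limma). The study reported more genes at the same cut-off with its own processing. The lack of calls among the 39 therefore says little about these genes. At an unadjusted p under 0.05, 1 of the 39 (*Wars*) was lower in *Snd1* KO, beside 2.33% of all genes tested, and 0 were higher, beside 5.63%. The adjusted p-values of the 39 genes ranged from 0.577 to 0.962. The mean was nevertheless lower in *Snd1* KO for 36 of the 39 genes, compared with 42.7% of all genes tested, and higher for 3, namely *Atf3*, *Ddit4* and *Slc38a2*. The median log2 fold change was -0.368, against 0.044 over all genes tested, and the range was -1.28 to 0.55. All 3 *Snd1* KO clones were below all 3 control clones for *Atf4*, *Mthfd2* and *Wars*, which is 3 of 39 beside 4.03% of all genes tested, and above them for 0 of 39, beside 9.69%. The genes are described below as lower or higher by their values, since no fold change of a member passed the test.

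**Figure D1:**
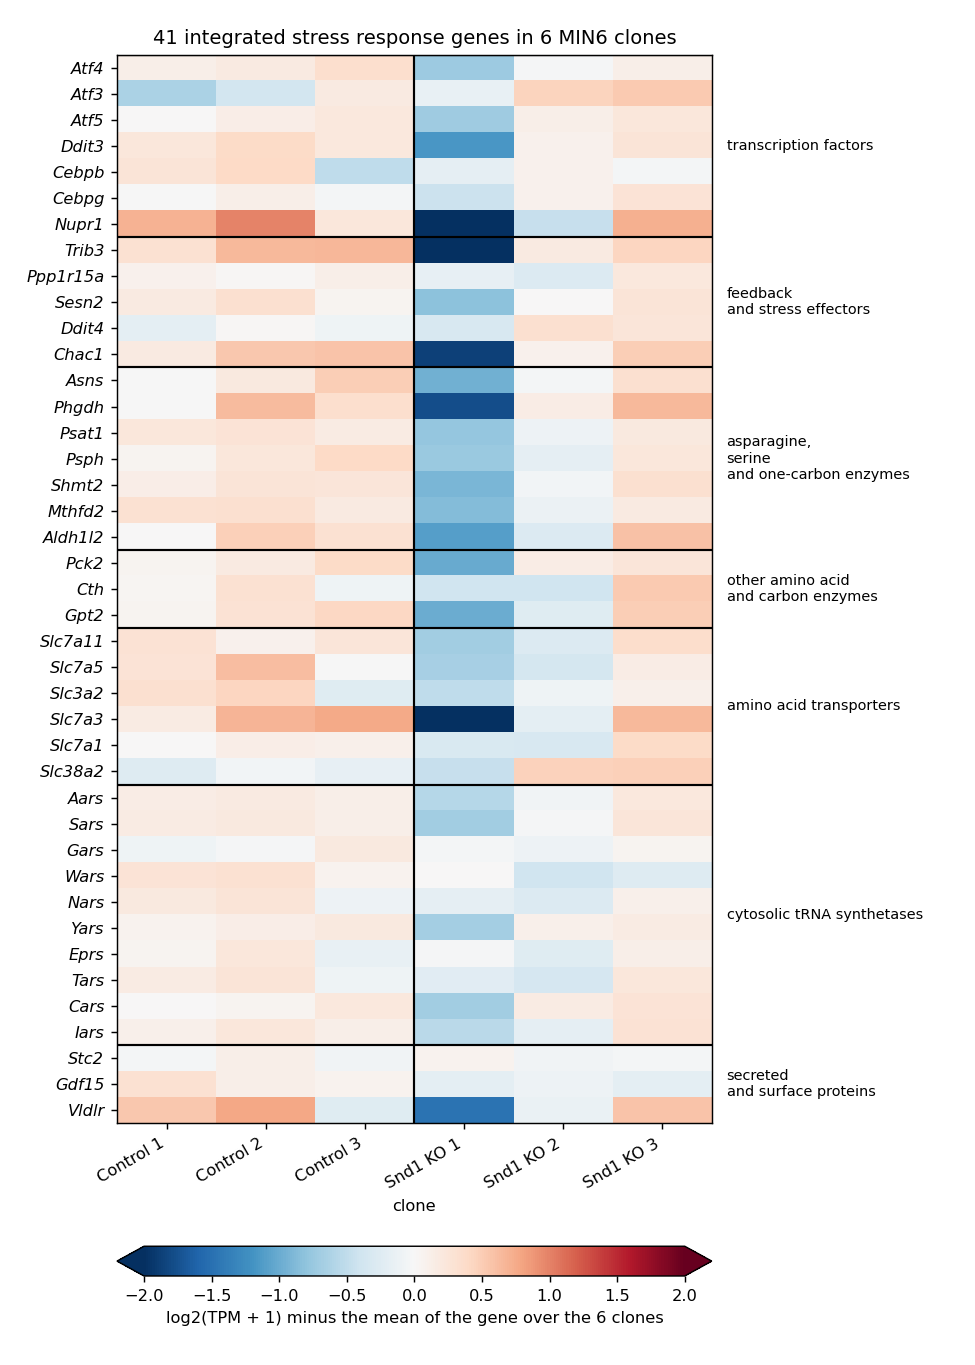
Level of each of the 41 genes in the 6 clones, as log2(TPM + 1) minus the mean of the gene over the clones, with genes in rows by role and clones in columns. Blue is below and red above the mean of the gene, with colors limited at -2 and 2, and the column of Snd1 KO 1 is blue for most genes while Snd1 KO 3 resembles the controls.

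The lower mean came mainly from 1 clone. *Snd1* KO 1 had the lowest level of the 6 clones for 29 of the 39 genes, beside 19.7% of all genes tested, and *Snd1* KO 2 for 8, beside 14.6%. *Atf3* was lowest in Control 1 and *Cebpb* in Control 3, the clones that were lowest for 8.7% and 27.9% of all genes tested. *Snd1* KO 3 was the lowest clone for 0 of the 39 (8.12% of all genes tested) and the highest clone for 16 (13.6% of all genes tested). Control 2 was the highest clone for 13 (13.1% of all genes tested), Control 3 for 9 (9.34%), *Snd1* KO 2 for 1 (25.4%), and Control 1 and *Snd1* KO 1 for 0 (17.1% and 21.5%). The median level of the 39 genes was 55.2% of the control mean in *Snd1* KO 1, 81.4% in *Snd1* KO 2 and 105.7% in *Snd1* KO 3. Over all genes tested the same medians were 100.4%, 103.4% and 102.3%. The *Snd1* messenger RNA was at 12.9%, 49.8% and 17.3% in the same clones, and protein data were not analysed here. In *Snd1* KO 1, 35 of the 39 genes lay below every control clone (24.4% of all genes tested) and 0 lay above every control clone (31.6%). In *Snd1* KO 2, 27 lay below every control clone (21.7% of all genes tested) and 3 above (37.1%). In *Snd1* KO 3, 3 lay below every control clone (17.9% of all genes tested) and 17 above every control clone (32.4% of all genes tested). Leaving out *Snd1* KO 1 brought the median log2 fold change to -0.098, against 0.0593 over all genes tested in that fit. Of the 39 genes, 31 then had a lower and 8 a higher mean. Leaving out *Snd1* KO 3 instead moved the median to -0.521, against 0.0395 over all genes tested. In that fit 14 members were lower at an unadjusted p under 0.05, beside 2.04% of all genes tested, with 0 called (limma). Among the 14, the log2 fold change in that fit was -1.96 for *Nupr1*, -1.66 for *Slc7a3*, -0.94 for *Aldh1l2* and -0.87 for *Gpt2*. *Chac1* at -1.32 and *Vldlr* at -1.16 had an unadjusted p over 0.05 there.

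Among the transcription factors, *Atf4* (ENSMUSG00000042406, chromosome 15 from 80255184 to 80257541 in GRCm38) encodes the activator that gives the response its program. Its level was 348, 361 and 404 TPM in Control 1 to 3 and 192, 315 and 347 TPM in *Snd1* KO 1 to 3. The groups did not overlap, but *Snd1* KO 3 lay directly under the lowest control clone and *Snd1* KO 1 far below it. Control clones averaged 371 ± 29.3 TPM and *Snd1* KO clones 285 ± 82.0 TPM (SD, n = 3), a log2 fold change of -0.42 with a 95% interval of -0.97 to 0.12 (limma, adjusted p = 0.646). The exact two-sided permutation test gave p = 0.1, the smallest value that 3 against 3 clones allow. Without *Snd1* KO 1 the log2 fold change was -0.16.

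*Ddit3* (ENSMUSG00000025408, chromosome 10 from 127290774 to 127296288) encodes CHOP, a factor of prolonged stress and of cell death. It was at 59.3, 65.9 and 58.8 TPM in the control clones and at 22.1, 53.7 and 60.6 TPM in *Snd1* KO 1 to 3. *Snd1* KO 1 had 35.97% of the control mean, and *Snd1* KO 3 lay within the control range. The log2 fold change of *Ddit3* was -0.55 (95% interval -1.40 to 0.31, limma adjusted p = 0.705), and -0.10 without *Snd1* KO 1. *Nupr1*, a small stress-induced chromatin protein whose promoter element is printed above, spanned a wide range. It was at 14.5, 18.2 and 10.3 TPM in the control clones and at 1.14, 5.95 and 14.7 TPM in *Snd1* KO 1 to 3. The level in *Snd1* KO 1 was 7.96% of the control mean and that in *Snd1* KO 3 was 102.6%, so the *Snd1* KO clones differed from each other by more than the groups did. For *Nupr1* the log2 fold change was -1.28 (95% interval -2.91 to 0.34, limma adjusted p = 0.639), and -0.52 without *Snd1* KO 1.

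*Atf3*, an early stress factor that ATF4 activates, went the other way. It was at 1.82, 2.42 and 3.99 TPM in the control clones and at 2.95, 5.02 and 5.32 TPM in *Snd1* KO 1 to 3. *Snd1* KO 2 and *Snd1* KO 3 were above every control clone and *Snd1* KO 1 was among the controls. The log2 fold change of *Atf3* was 0.55 (95% interval -0.17 to 1.26, limma adjusted p = 0.649), and 0.76 without *Snd1* KO 1. The remaining factors were *Atf5*, an ATF4-like activator, and the C/EBP proteins *Cebpb* and *Cebpg*, which can pair with ATF4. *Atf5* was at 55.9%, 99.3% and 107.4% of the control mean in *Snd1* KO 1 to 3. *Cebpb* was lowest in Control 3, at 20.2 TPM, and between 25.5 and 31.2 TPM in the *Snd1* KO clones. Over the 7 factors, 5 were lowest in *Snd1* KO 1.

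The feedback genes restrain the response or act downstream of it. *Trib3* (ENSMUSG00000032715, chromosome 2 from 152337422 to 152344032) encodes a pseudokinase that binds ATF4 and CHOP and dampens them. It was at 37.9, 48.4 and 48.5 TPM in the control clones and at 5.69, 34.4 and 41.1 TPM in *Snd1* KO 1 to 3. *Snd1* KO 1 was set off from all other clones at 12.7% of the control mean, while the other *Snd1* KO clones had 76.6% and 91.5%. For *Trib3*, control clones averaged 44.9 ± 6.07 TPM and *Snd1* KO clones 27.1 ± 18.8 TPM (SD, n = 3), with a log2 fold change of -1.08 (95% interval -2.68 to 0.51, limma adjusted p = 0.692). Without *Snd1* KO 1 this was -0.24. *Chac1*, which breaks down glutathione and is a sensitive reporter of ATF4 activity, had the same order of clones. It was at 91.4, 119 and 121 TPM in the control clones and at 21.4, 86.3 and 114 TPM in *Snd1* KO 1 to 3. Its log2 fold change was -0.86 (95% interval -2.24 to 0.53, limma adjusted p = 0.713), and -0.14 without *Snd1* KO 1.

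*Sesn2*, which signals leucine shortage to mTORC1, was at 49.7%, 87.8% and 105.2% of the control mean in *Snd1* KO 1 to 3. *Ppp1r15a* encodes GADD34, which returns eIF2 to its unphosphorylated form. It was at 84.1%, 77.5% and 110.8% of the control mean in the same clones. *Ddit4*, an inhibitor of mTORC1, was at 84.6% in *Snd1* KO 1 and at 133.1% and 125.9% in *Snd1* KO 2 and *Snd1* KO 3. All 5 of these genes were below every control clone in *Snd1* KO 1, and 4 of the 5 had their lowest level there.

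**Figure D2:**
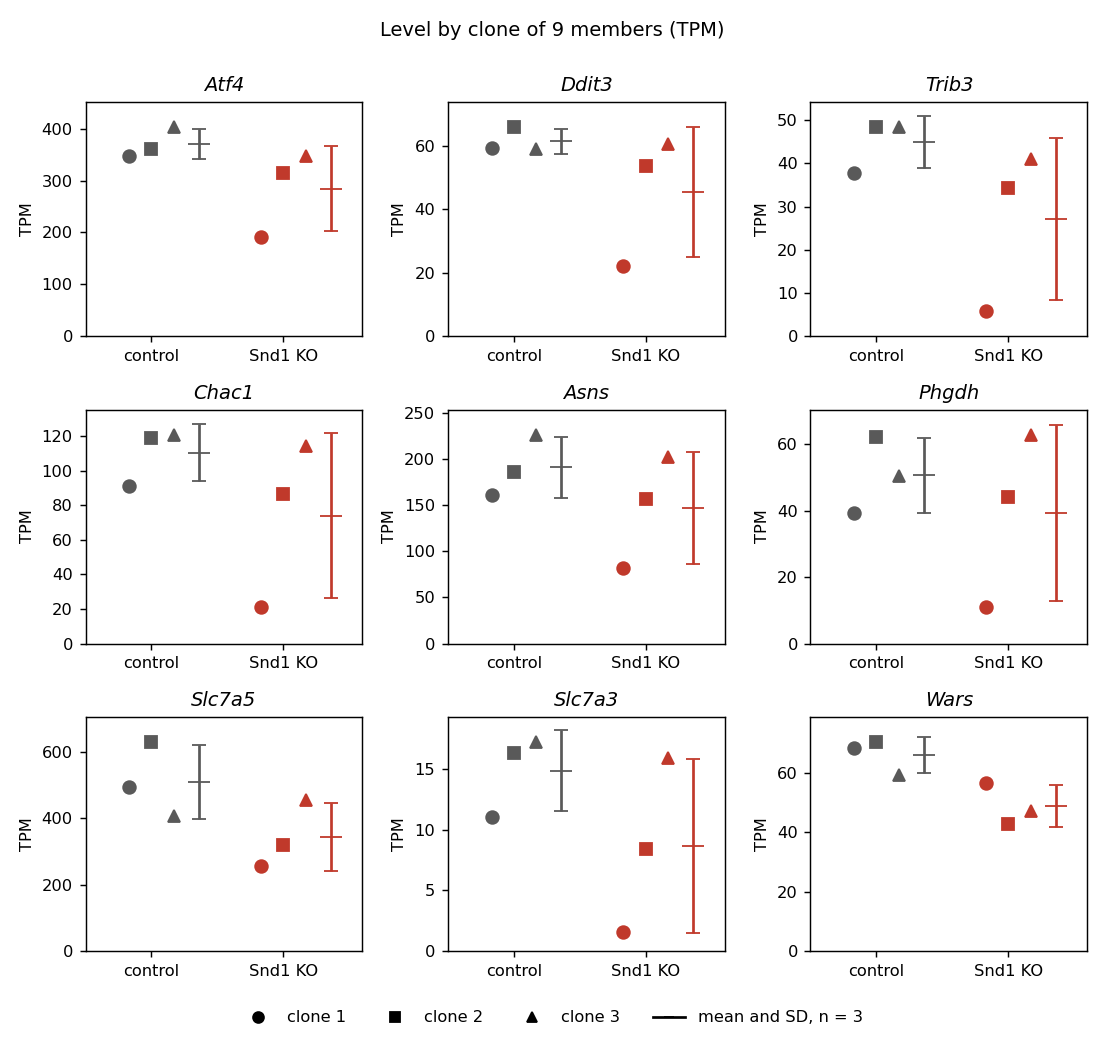
TPM of 9 genes in each clone on axes that start at 0, with control in gray and Snd1 KO in red, clone 1 as a circle, clone 2 as a square and clone 3 as a triangle, and the mean and SD (n = 3) beside the points. The red circle of Snd1 KO 1 lies far below all other points for Trib3, Chac1, Phgdh and Slc7a3, whereas for Wars Snd1 KO 1 is the highest of the 3 Snd1 KO clones and lies just under Control 3.

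The 7 enzymes of asparagine, serine and one-carbon metabolism were all lowest in *Snd1* KO 1, at 21.6% to 49.98% of the control mean, and all 7 had a mean below control, with a median log2 fold change of -0.463. In *Snd1* KO 2 they were at 68.2% to 87.3% and in *Snd1* KO 3 at 93.3% to 125.1%. *Asns* (ENSMUSG00000029752, chromosome 6 from 7675169 to 7693254) encodes asparagine synthetase, the classical ATF4 target. It was at 161, 185 and 226 TPM in the control clones and at 82.0, 157 and 202 TPM in *Snd1* KO 1 to 3. *Snd1* KO 3 lay within the control range and *Snd1* KO 2 just under it. For *Asns* the log2 fold change was -0.46 (95% interval -1.24 to 0.33, limma adjusted p = 0.734). Leaving out *Snd1* KO 1 gave -0.09, and clone quality weights, which let clones far from their group count less, gave 0.06.

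*Phgdh*, the first enzyme of serine synthesis from glycolysis, was at 39.3, 62.1 and 50.5 TPM in the control clones and at 10.9, 44.2 and 62.9 TPM in *Snd1* KO 1 to 3. *Snd1* KO 3 had the highest level of the 6 clones and *Snd1* KO 1 the lowest. *Phgdh* had a log2 fold change of -0.64 (95% interval -2.07 to 0.78, limma adjusted p = 0.781). It turned positive, to 0.08, with clone quality weights and also when *Snd1* KO 1 was left out. The next steps of serine synthesis, *Psat1* and *Psph*, were at 49.98% and 48.3% of the control mean in *Snd1* KO 1, and *Shmt2*, which makes glycine and one-carbon units in mitochondria, was at 45.2%.

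*Mthfd2*, which carries one-carbon units on tetrahydrofolate in mitochondria, was at 152, 153 and 140 TPM in the control clones and at 67.1, 113 and 139 TPM in *Snd1* KO 1 to 3. The groups did not overlap, although *Snd1* KO 3 lay directly under Control 3. Control clones averaged 149 ± 7.54 TPM and *Snd1* KO clones 106 ± 36.2 TPM (SD, n = 3), with a log2 fold change of -0.54 (95% interval -1.15 to 0.07, limma adjusted p = 0.607, exact permutation p = 0.1). Without *Snd1* KO 1 this was -0.25. *Aldh1l2*, the mitochondrial enzyme that oxidizes formyl-tetrahydrofolate, was at 45.0, 62.9 and 55.6 TPM in the control clones and at 20.4, 37.2 and 68.2 TPM in *Snd1* KO 1 to 3. The controls lay between *Snd1* KO 2 and *Snd1* KO 3. *Aldh1l2* had a log2 fold change of -0.52 (95% interval -1.48 to 0.44, limma adjusted p = 0.754). Leaving out *Snd1* KO 1 gave -0.10 and the weights gave 0.10.

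Of the other amino acid and carbon enzymes, *Gpt2* makes alanine and glutamate-derived carbon in mitochondria. It was at 21.2, 25.01 and 27.5 TPM in the control clones and at 9.72, 17.04 and 29.0 TPM in *Snd1* KO 1 to 3. The *Snd1* KO clones lay on both sides of the controls. *Gpt2* had a log2 fold change of -0.50 (95% interval -1.35 to 0.35, limma adjusted p = 0.729). The weights gave 0.10, and leaving out *Snd1* KO 1 gave -0.13. *Pck2*, the mitochondrial enzyme that makes phosphoenolpyruvate, was at 41.1% of the control mean in *Snd1* KO 1 and at 94.8% and 101.5% in the other *Snd1* KO clones. *Cth*, which makes cysteine from cystathionine, was at 67.3% and 67.0% in *Snd1* KO 1 and *Snd1* KO 2 and at 138.2% in *Snd1* KO 3.

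The 6 amino acid transporters had medians of 55.8%, 69.1% and 110.4% of the control mean in *Snd1* KO 1 to 3. *Slc7a5* encodes LAT1, which imports leucine and other large neutral amino acids together with the heavy chain from *Slc3a2*. It was at 494, 629 and 406 TPM in the control clones and at 257, 320 and 456 TPM in *Snd1* KO 1 to 3. The groups overlapped only through Control 3 and *Snd1* KO 3. For *Slc7a5*, control clones averaged 509 ± 112 TPM and *Snd1* KO clones 345 ± 102 TPM (SD, n = 3), a log2 fold change of -0.58 (95% interval -1.18 to 0.02, limma adjusted p = 0.607), and it was -0.39 without *Snd1* KO 1. *Slc3a2* was at 61.2%, 82.6% and 93.6% of the control mean in *Snd1* KO 1 to 3.

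*Slc7a3*, a carrier of arginine and lysine, was at 11.03, 16.3 and 17.2 TPM in the control clones and at 1.59, 8.43 and 15.9 TPM in *Snd1* KO 1 to 3. *Snd1* KO 1 had 10.7% of the control mean and *Snd1* KO 3 lay within the control range. *Slc7a3* had a log2 fold change of -1.07 (95% interval -2.61 to 0.48, limma adjusted p = 0.686), and -0.31 without *Snd1* KO 1. Its relative *Slc7a1* was at 75.6%, 75.2% and 123.9% of the control mean in *Snd1* KO 1 to 3. *Slc7a11*, the cystine carrier with both elements printed above, was at 0.906 TPM in *Snd1* KO 1 against 1.56 to 2.90 TPM in the others. *Slc38a2*, an importer of small neutral amino acids that cells induce when starved of them, was lowest in *Snd1* KO 1 at 90.2 TPM, against 105 to 121 TPM in control. It was above every control clone in *Snd1* KO 2 and *Snd1* KO 3, at 173 and 174 TPM. The log2 fold change of *Slc38a2* was 0.32 (limma adjusted p = 0.758), and without *Snd1* KO 1 it was 0.63 (unadjusted p = 0.001, adjusted p = 0.167). *Slc38a2*, *Ddit4* (0.37, unadjusted p = 0.018, adjusted p = 0.266) and *Atf3* (unadjusted p = 0.044, adjusted p = 0.337) were the 3 members higher at an unadjusted limma p under 0.05 in the fit without that clone, beside 9.68% of all genes tested in it.

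The cytosolic tRNA synthetases, which load amino acids onto their tRNAs, were split. Of the 10, 5 were lowest in *Snd1* KO 1 and 5 in *Snd1* KO 2. *Aars*, *Sars*, *Yars*, *Cars* and *Iars*, for alanine, serine, tyrosine, cysteine and isoleucine, were at 55.2% to 61.4% of the control mean in *Snd1* KO 1. *Gars* and *Eprs*, for glycine and for glutamate and proline, were at 95.6% and 94.8% there. *Nars* and *Tars*, for asparagine and threonine, were at 81.1% and 78.4%. The median over the 10 genes was 69.9%, 83.7% and 104.9% in *Snd1* KO 1 to 3, and the median log2 fold change was -0.252.

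*Wars*, the tryptophan enzyme, had another pattern and was the member with the smallest p-value in the fit of all 6 clones. It was at 68.4, 70.2 and 59.0 TPM in the control clones and at 56.6, 42.6 and 46.9 TPM in *Snd1* KO 1 to 3. All *Snd1* KO clones lay below all control clones, and *Snd1* KO 1 was the highest of them. *Wars* averaged 65.8 ± 5.97 TPM in the control clones and 48.7 ± 7.15 TPM in the *Snd1* KO clones (SD, n = 3). This is a log2 fold change of -0.43 (95% interval -0.77 to -0.10, limma unadjusted p = 0.0182, adjusted p = 0.577, exact permutation p = 0.1). Without *Snd1* KO 1 it was -0.54, with an unadjusted limma p of 0.0046 and an adjusted p of 0.196. The unadjusted limma p was 0.0605 without Control 1, 0.0661 without Control 2, 0.0577 without *Snd1* KO 2 and 0.0571 without *Snd1* KO 3, so it rose above 0.05 in 4 of the 6 fits that left out a clone.

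**Figure D3:**
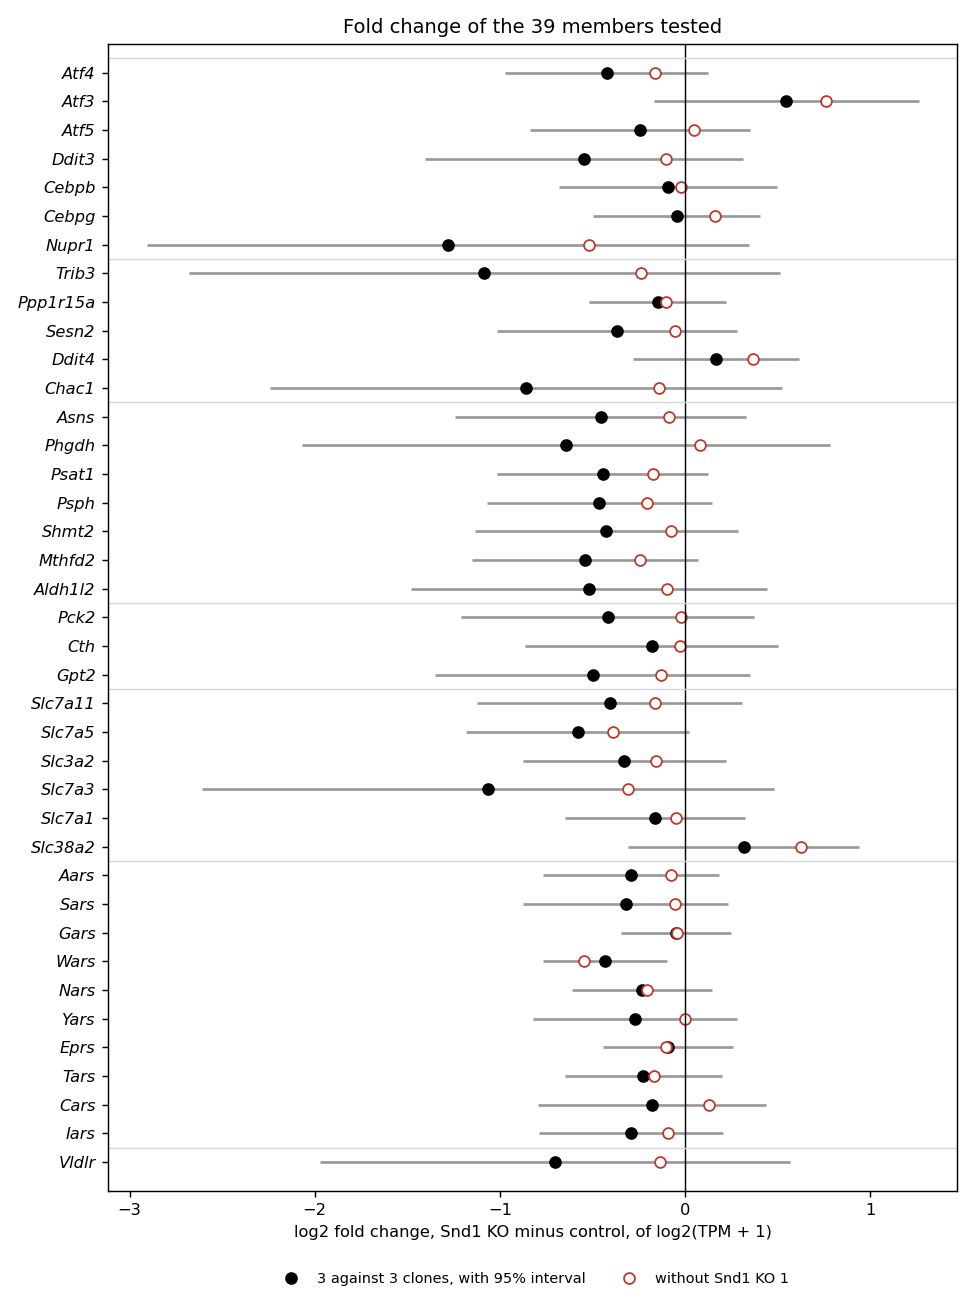
Log2 fold change of log2(TPM + 1), Snd1 KO minus control, for the 39 genes tested, with filled points and 95% intervals for 3 against 3 clones and open points for the fit without Snd1 KO 1. The interval of Wars alone excludes 0, and most open points lie nearer to 0 than the filled ones, with Wars, Atf3, Slc38a2 and Ddit4 among those farther from it.

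Of the secreted and surface proteins, *Vldlr*, a lipoprotein receptor with the element in its promoter window, was at 35.4, 41.9 and 20.2 TPM in the control clones and at 7.99, 21.9 and 36.2 TPM in *Snd1* KO 1 to 3. The control clones themselves ranged widely and *Snd1* KO 1 alone was below all of them. *Vldlr* had a log2 fold change of -0.70 (95% interval -1.97 to 0.57, limma adjusted p = 0.749), and -0.14 without *Snd1* KO 1. The stress hormone gene *Gdf15* had 7, 4 and 3 recovered reads in the control clones and 0, 1 and 0 in *Snd1* KO 1 to 3. The groups do not overlap, but Control 2 and Control 3 are at or near the floor of 3 reads, the level that a count of 0 still allows. *Stc2*, a secreted glycoprotein, had 1, 7 and 0 reads in control and 5, 0 and 1 in *Snd1* KO. Both were below the filter. Without a filter, limma gave *Gdf15* an unadjusted p of 0.00655 and an adjusted p of 0.725, and *Stc2* an unadjusted p of 0.849.

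The same 250-base windows were set beside the levels. The 10 members with TGATGNAA had a median of 42.0% of the control mean in *Snd1* KO 1, with a range of 7.96% to 107.4%, and the 22 tested members with a window but no match had a median of 55.5%, with a range of 12.7% to 94.8%. In *Snd1* KO 2 the medians were 80.2% and 84.0%, and in *Snd1* KO 3 they were 105.3% and 105.5%. The ranges overlapped in every clone. Members with the element were at either end, such as *Nupr1* at 7.96% and *Atf3* at 107.4%, and *Trib3*, at 12.7%, had no match in its window.

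Other genes of the pathway were read from 5 further lists with 78 genes, of which 74 were tested. None of the 74 was called. At an unadjusted p under 0.05, 2 of the 74 were lower and 2 higher in *Snd1* KO, beside 2.33% and 5.63% of all genes tested. The mean was lower for 47 and higher for 27, beside 42.7% of all genes tested that were lower. The 15 genes for the eIF2 kinases, eIF2, its exchange factor eIF2B and their regulators had a median of 103.8%, 87.7% and 94.4% of the control mean in *Snd1* KO 1 to 3. The 13 other cytosolic synthetase genes and cofactors had 108.0%, 90.2% and 92.4%. The 17 mitochondrial synthetase genes had 101.1%, 107.6% and 92.7%. The medians of these 3 lists were thus near or above the control mean in *Snd1* KO 1. In each list 1 gene was under 75% of the control mean there, beside 20.4% of all genes tested. These were *Impact* at 57.8%, *Mars1* at 67.5% and *Lars2* at 59.8%. TGATGNAA was in 0 of 11, 0 of 10 and 0 of 15 of the promoter windows of the 3 lists, beside 3.91% of all genes.

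The list nearest to the 41 genes was that of 18 other ATF4 targets, with medians of 66.6%, 89.6% and 105.7% in *Snd1* KO 1 to 3. Of these 18, 11 were lowest in *Snd1* KO 1, and 5 of the 16 with a promoter window (31.2%) held TGATGNAA. *Mthfd1l*, a mitochondrial one-carbon enzyme, was at 49.3, 45.4 and 28.6 TPM in the control clones and at 32.8, 17.02 and 23.9 TPM in *Snd1* KO 1 to 3. The groups overlapped through Control 3 and *Snd1* KO 1, and the log2 fold change was -0.73 (limma unadjusted p = 0.0411, adjusted p = 0.607). For *Mthfd1l* the unadjusted limma p was 0.13 without Control 1, 0.117 without Control 2, 0.135 without *Snd1* KO 2 and 0.0968 without *Snd1* KO 3. It stayed under 0.05 without Control 3 or *Snd1* KO 1. *Aldh18a1*, the first enzyme of proline synthesis, was at 82.4, 94.3 and 81.0 TPM in control and at 63.0, 52.8 and 73.6 TPM in *Snd1* KO. Its groups did not overlap, and its log2 fold change was -0.45 (limma unadjusted p = 0.0192, adjusted p = 0.581). The unadjusted limma p of *Aldh18a1* was 0.0713 without Control 2 and 0.0512 without *Snd1* KO 2, and under 0.05 in the other fits that left out a clone. *Tnfrsf10b*, a death receptor that CHOP induces, was at 1.627, 1.001 and 1.014 TPM in control and at 2.36, 2.08 and 2.53 TPM in *Snd1* KO. All *Snd1* KO clones were above all control clones, and its log2 fold change was 0.60 (limma unadjusted p = 0.0324, adjusted p = 0.598). At this low level the value depends on the pseudocount, with 0.91 at a pseudocount of 0.1, and the unadjusted limma p was 0.0888 with quantile normalization and 0.0595 without the filter. The same p was 0.0807 with clone number as a block, 0.0953 without Control 2, 0.0631 without Control 3, 0.0556 without *Snd1* KO 1 and 0.0753 without *Snd1* KO 3. It stayed under 0.05 without Control 1 or *Snd1* KO 2.

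The 11 tested genes of 15 other amino acid transporters had medians of 110.1%, 88.0% and 99.9% of the control mean in *Snd1* KO 1 to 3. TGATGNAA was in 1 of the 12 genes of this list with a promoter window (8.33%). The gene of this list with a p under 0.05 was *Slc7a2*, a carrier of arginine and lysine like *Slc7a3*. It was at 74.02, 73.51 and 95.99 TPM in control and at 147, 120 and 96.8 TPM in *Snd1* KO 1 to 3. The groups did not overlap, with *Snd1* KO 1 the highest clone and *Snd1* KO 3 directly above Control 3. *Slc7a2* had a log2 fold change of 0.56 (limma unadjusted p = 0.0202, adjusted p = 0.584). Its unadjusted limma p was 0.0682 without Control 1, 0.0689 without Control 2, 0.0531 without *Snd1* KO 1 and 0.056 without *Snd1* KO 2. It stayed under 0.05 without Control 3 or *Snd1* KO 3. In *Snd1* KO 1, *Slc7a2* was thus at 181.1% of the control mean and *Slc7a3* at 10.7%.

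**Figure D4:**
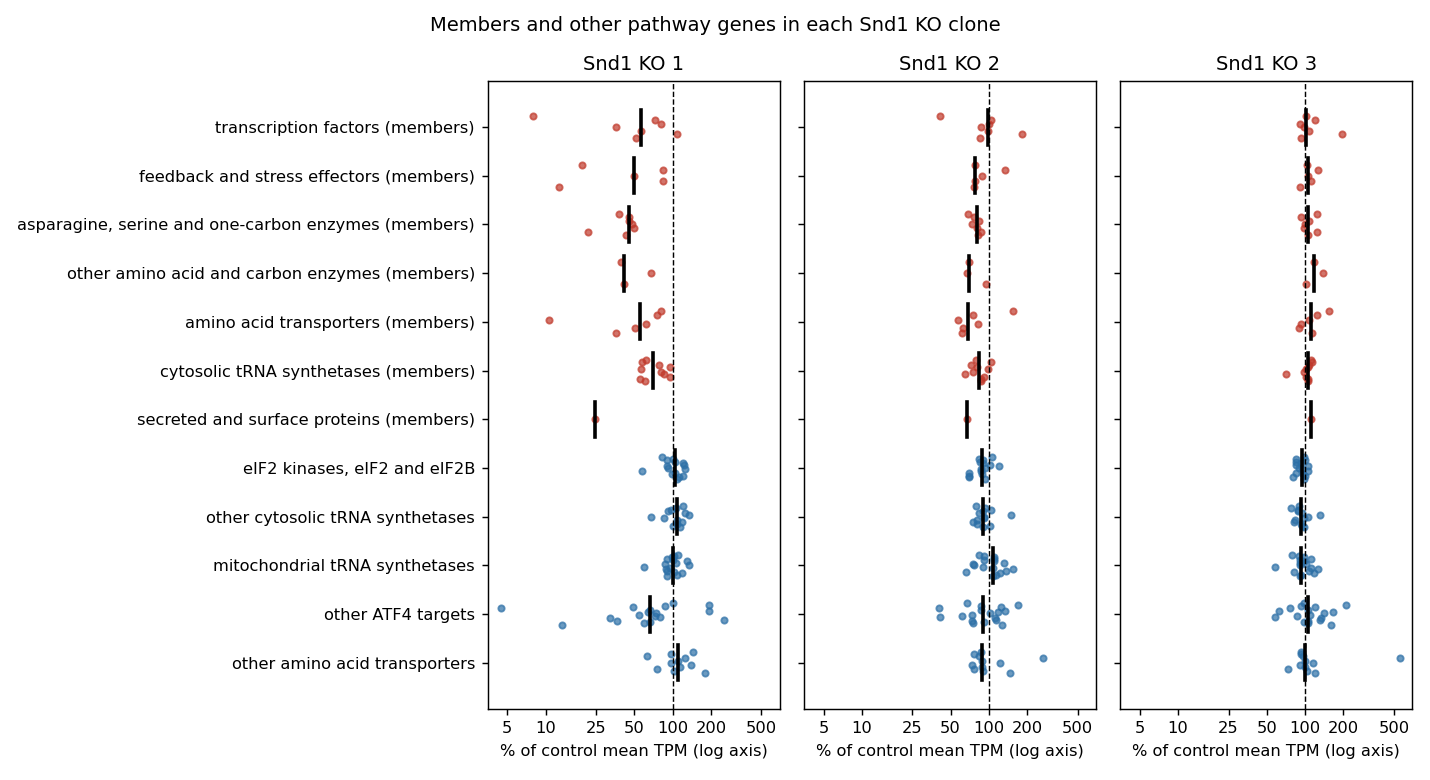
Level of each tested gene as a percent of the control mean TPM in Snd1 KO 1, Snd1 KO 2 and Snd1 KO 3 on a log axis, with lists in rows, the 39 tested genes of the 41-gene set in red, other pathway genes in blue and the median of each list as a black bar. In Snd1 KO 1 the red lists have medians of 41.1% to 69.9%, apart from the secreted and surface proteins at 24.6%, where Vldlr is the 1 gene tested. The blue lists, apart from the other ATF4 targets at 66.6%, lie at 101.1% to 110.1%.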

How the data were processed

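RNA of 3 control and 3 *Snd1* KO MIN6 clones was sequenced as 100-base paired ends from Nextera XT libraries, which do not mark strand, so a gene and its antisense partner cannot be told apart. The authors used the Genialis platform to process them and deposited TPM per gene. The submitters' processing notes name FastQC, Trimmomatic, HISAT2, HTSeq, DESeq2 and mm10, without roles, and the annotation is not given in the sources used here. Rows are Ensembl identifiers, and 53706 of 53801 were matched to GENCODE M21 (GRCm38); 92 ERCC and 7 SIRV rows were left out. *Gcn1* and *Mars1* were matched through RefSeq synonyms. A second identifier of *Ddit3* was listed at 0 in all clones.

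The 41 members, the pathway lists and the markers were chosen with earlier results of these data known. TPM was transformed to log2(TPM + 1), genes with a mean under 0.5 TPM were removed, and the groups were compared with limma 3.58.1 (trend) under R 4.3.3. Benjamini-Hochberg adjustment ran over the 17823 genes left, and a call needed adjusted p under 0.05 and 2-fold. Permutation tests were exact and two-sided. Values in every clone are given for *Snd1*, *Atf4*, *Ddit3*, *Trib3* and *Asns*, and for members with an unadjusted p under 0.05, groups that did not overlap or a log2 fold change of 0.5 or more in either direction. Pathway genes were named at an unadjusted p under 0.05. Genes outside this rule are mostly given by percent or range. The fold changes of *Slc38a2* and *Ddit4* were chosen for mention after their values were seen, and *Stc2*, which did not pass the filter, is given by reads.

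TPM times the summed exon length of all transcripts gave whole reads, within 0.01, in every clone for 91.6% of 14870 genes (44.6% on chromosomes 16 to 19 and 98.8% elsewhere). For other genes, *Nars* among the members, a shorter length that gave whole reads was used. These reads cover counting error only. Python 3.11.15, numpy 2.4.6, pandas 2.3.3 and matplotlib 3.10.9 served for tables, promoters and plots. Alternatives were pseudocounts of 0.1 and 0.01, no filter, a filter at a mean of 5 TPM, quantile normalization, median-ratio scaling, clone quality weights, a replicate block, leaving out each clone, and voom on the recovered reads, the last of which was chosen after seeing the data.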

Additional observations from a re-analysis of the deposited data

How the results depend on the processing

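With 3 clones a group, the smallest exact permutation p is 0.1, and depth limits the values of *Gdf15* and *Stc2*, which have few reads. No member was called under any alternative run. Of 298 fold changes of single named genes under alternatives, 292 kept their direction and side of the threshold. None of these genes was called in the fit reported, so the side of the threshold could hardly change. Sizes did change, as for *Trib3* from -1.08 to -0.24 without *Snd1* KO 1. Clone quality weights, which were 3.911 for *Snd1* KO 3 but 0.2857 for *Snd1* KO 1 and 0.2793 for Control 3, turned the log2 fold change of *Asns* to 0.0611, of *Phgdh* to 0.0836, of *Aldh1l2* to 0.10 and of *Gpt2* to 0.10, and leaving out clones gave -1.13 (without *Snd1* KO 3) to 0.0819 (without *Snd1* KO 1) for *Phgdh*. *Snd1* passed the threshold with weights (log2 fold change -2.31, adjusted p = 0.0195). *Wars* (-0.54, adjusted p = 0.0217), *Atf3* (0.92, adjusted p = 0.029) and *Mthfd1l* (-0.95, adjusted p = 0.0233) then also had an adjusted p under 0.05 in limma, but were under 2-fold. The median log2 fold change of the members was -0.03 with weights, against 0.0194 over all genes, with 22 of 39 members lower.

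The number of genes called over all genes was 1 in the fit reported, 895 with weights, and 0 without the filter, with the block and with voom. The number of members lower at an unadjusted p under 0.05 was 1 as reported and 2 without the filter (*Wars* and *Gdf15*), with median-ratio scaling, with weights, with the block and with voom. The shares of all genes that were lower were 1.78% without the filter, 3.63% with median-ratio scaling, 2.2% with the block and 3.23% with voom. The number of members higher was 0 as reported and 3 with weights. In the weighted fit 14.38% of all genes were lower and 18.22% higher at that p, beside 2.33% and 5.63% as reported. Leaving out each clone in turn gave 0 to 1 genes called, 0 to 14 members lower, 0 to 3 members higher and a median of -0.521 to -0.098. The 14 came without *Snd1* KO 3, where 2.04% of all genes were lower, the 3 higher members without *Snd1* KO 1, where 9.68% of all genes were higher, and the 0 lower members without Control 1, Control 2 or *Snd1* KO 2. Without Control 3, 4 members were lower and 1 higher, beside 6.86% and 6.99% of all genes. The cause was not tested.

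The labels number the clones in both groups, but nothing says that a number marks a shared source. Deviations of same-numbered clones from their group means correlated at 0.115, -0.199 and -0.108 over 11368 genes, so the numbers were not taken as pairs. With the replicate block by clone number, 0 genes and 0 members were called and 2 members were lower.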

Other observations

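Several genes outside the naming rule were chosen after their values were seen. Among the other ATF4 targets, *Eif4ebp1*, a repressor of cap-dependent translation, was at 22.6, 40.3 and 37.2 TPM in the control clones and at 4.51, 42.0 and 53.4 TPM in *Snd1* KO 1 to 3. *Jdp2*, a factor that pairs with other leucine zipper proteins, had 231, 212 and 63 recovered reads in the control clones and 7, 62 and 124 in *Snd1* KO 1 to 3. Both were lowest in *Snd1* KO 1, at 13.5% and 4.42% of the control mean. *Slc1a5*, a glutamine carrier, was instead highest there, at 11.6 TPM against 3.21 to 6.49 TPM in the other clones.

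Other pathway genes varied between control clones or stood out in 1 clone. *Adm2*, a secreted peptide of the adrenomedullin family, was at 2.29 TPM in Control 1 and at 15.0 and 22.3 TPM in Control 2 and Control 3. *Slc1a1*, a glutamate carrier, was at 0.239 and 0.319 TPM in Control 1 and Control 2, at 5.36 TPM in Control 3 and at 2.49, 5.27 and 11.01 TPM in *Snd1* KO 1 to 3. *Eif2ak3*, which encodes PERK, was highest in *Snd1* KO 1, at 62.7 TPM against 35.98 to 54.4 TPM in the other clones.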
